A study of Mus musculus with 8 samples.

Results

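A set of 8 genes that let white blood cells stop on and cross the wall of a blood vessel were followed in single cells of the mouse hippocampus: Selp, Sele, Icam1, Icam2, Vcam1, Pecam1, Esam and Cdh5. They were chosen by name, and all 8 were found among the 55367 gene symbols of both hippocampal count tables. One library came from Foxp3-DTR- mice (called DTRneg) and 1 from Foxp3-DTR+ mice (DTRpos), with 2 mice pooled in each. Mice of both genotypes received diphtheria toxin, which kills cells that carry its receptor, in DTRpos animals the regulatory T cells that express Foxp3, so the comparison asks how the hippocampus differs after regulatory T cells are depleted. Cells were taken from perfused animals and sorted as CD45- Thy1-, a gate without leukocytes, although the labels name the cell type as neurons and glia. The age of the mice, the dose and the time after injection are not given in the sources used here. The mice of a library cannot be told apart, so each group is 1 sample, no test between groups was possible, and the ranges in brackets after levels, shares and ratios are exact 95% intervals that cover the counting error of a library alone (Newcombe's interval for a difference of shares).

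Leukocytes leave the blood in steps. Selectins on the vessel wall (P-selectin, encoded by Selp, and E-selectin, encoded by Sele) catch cells and let them roll, immunoglobulin-family ligands (ICAM-1, ICAM-2 and VCAM-1) bind leukocyte integrins and hold them, and proteins of the endothelial junction (PECAM-1, ESAM and VE-cadherin, encoded by Cdh5) govern the passage between cells. In the brain most of this traffic uses the veins that follow the capillary bed, and resting brain endothelium is known for low selectin and ICAM-1 levels that rise with cytokines such as tumour necrosis factor and interleukin 1. ICAM-2 and the junction proteins, in contrast, are made by endothelium at rest.

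On GRCm38.p6, the assembly behind the mm10 build that the submitters' processing notes name, Sele (chromosome 1, 164039614 to 164058487) and Selp (chromosome 1, 164115264 to 164150026) are neighbours in 1 selectin cluster. Icam2 (chromosome 11, 106377656 to 106388139) and Pecam1 (chromosome 11, 106654213 to 106715281) also share a chromosome, as do Icam1 (chromosome 9, 21015940 to 21028814) and Esam (chromosome 9, 37528089 to 37538319). Vcam1 lies on chromosome 3 (116110020 to 116129688) and Cdh5 on chromosome 8 (104101613 to 104144504). In GENCODE M21, Icam1, Vcam1, Selp and Cdh5 each overlap a non-coding gene on the opposite strand. Whether the counting used strand is not given in the sources used here.

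Of the 8 genes, 3 had an entry in the RefSeq promoter table, and these are inducible genes whose share of positive cells was highest in venous cells below, so their sequences are shown. Each is the 250 bases before the annotated start site on the plus strand, in lower case, with matches in capitals to the letters GGANNTTCC (a form of the NF-kB site), TGACTCA (the AP-1 site) and TATAAA (the TATA box), searched on both strands. The Icam1 stretch is chr9:21015690-21015939, the Sele stretch chr1:164047984-164048233 and the Selp stretch chr1:164115014-164115263. The Sele start site used here lies inside the span that RefSeq gives for the whole gene.
Icam1: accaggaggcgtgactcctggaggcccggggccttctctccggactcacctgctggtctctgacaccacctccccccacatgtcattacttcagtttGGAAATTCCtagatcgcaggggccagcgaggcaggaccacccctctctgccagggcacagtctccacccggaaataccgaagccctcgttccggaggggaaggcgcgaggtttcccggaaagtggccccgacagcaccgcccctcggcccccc
Sele: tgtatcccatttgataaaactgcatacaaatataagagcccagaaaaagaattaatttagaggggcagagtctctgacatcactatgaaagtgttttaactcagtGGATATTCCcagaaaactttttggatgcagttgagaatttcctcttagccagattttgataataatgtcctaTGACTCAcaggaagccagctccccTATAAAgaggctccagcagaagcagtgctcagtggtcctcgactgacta
Selp: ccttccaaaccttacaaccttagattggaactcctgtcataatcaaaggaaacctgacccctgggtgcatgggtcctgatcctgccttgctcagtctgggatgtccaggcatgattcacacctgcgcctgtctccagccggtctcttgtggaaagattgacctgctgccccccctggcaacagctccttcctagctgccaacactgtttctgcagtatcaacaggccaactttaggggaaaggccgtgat

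The Icam1 stretch held GGAAATTCC, from 153 to 145 bases before the start site. That of Sele held GGATATTCC from 145 to 137 bases before it, then TGACTCA from 73 to 67 and TATAAA from 49 to 44 bases before it, and no match overlapped another. In the Selp stretch none of these letters was found, which says only that they are not in this window. Among 32851 promoters of the table, 3.59% held GGANNTTCC in the same 250 bases, 4.46% held TGACTCA and 12.4% held TATAAA. A match is a description of the letters and not of a bound site.

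After filtering, 6866 DTRneg cells (median 6005 UMIs, unique molecular identifiers that count captured transcripts) and 5693 DTRpos cells (median 4509) remained. No Foxp3 UMI was found in either library, and the sort took CD45- cells, so the depletion itself could not be checked here. Endothelial cells were those with at least 3 of the 5 markers Cldn5, Flt1, Ly6c1, Itm2a and Egfl7 detected, 535 in DTRneg (7.79% of cells, median 2028 UMIs) and 380 in DTRpos (6.67%, median 1626). At the edge of this definition, 26 and 13 of them had exactly 3 markers, while 27 and 20 cells had 2 and were left out. Of the endothelial cells, 502 in DTRneg and 370 in DTRpos lay in 1 cluster of their own. The other 33 DTRneg and 10 DTRpos barcodes lay among other cell types, with medians of 8561 and 6421.5 UMIs, and held 30.8% and 13.1% of all endothelial UMIs. In these barcodes the 7 mature oligodendrocyte markers summed to 31485 and 20574 CPM (UMIs of the genes per 1000000 UMIs of these cells), against 1304 and 734 inside the cluster. The ratios of the 8 genes between the libraries are therefore given both for every endothelial barcode and for those inside the cluster. The libraries shared 18 barcodes, none of them endothelial.

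Selectin transcripts were rare. Selp, which endothelium and platelets store for quick release, was found in 3 of 535 endothelial cells of DTRneg, with 15, 2 and 1 UMIs, and in 2 of 380 of DTRpos, with 1 UMI each. Sele, which endothelium makes on stimulation, was found in 3 DTRneg cells, with 5, 1 and 1 UMIs, and in 2 DTRpos cells, with 46 and 11. All UMIs of both genes, in both libraries, lay in endothelial cells, and 1 cell in each library carried both selectins. Every selectin-positive cell also had Vcam1 UMIs, and each had at least 3 of the 7 venous markers detected. Of the 5 platelet markers, Ppbp and Itga2b had UMIs in the endothelial cells of both libraries and Gp9 in DTRpos alone, while Gp1bb and Treml1 were at 0. The 5 genes summed to 17 UMIs (11.1 CPM) in DTRneg and 23 UMIs (29.6 CPM) in DTRpos. Whether platelets gave any of the Selp UMIs was not tested.

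Icam2, the ICAM present on resting endothelium, was counted almost wholly in endothelial cells. In endothelial cells it stood at 346 CPM (317 to 377) in DTRneg and 429 CPM (384 to 478) in DTRpos, and 99.6% and 98.5% of its UMIs in the 2 libraries were there. No UMI of it was counted in 3412 and 2452 mature oligodendrocyte-like cells, which by a floor of 3 counts allows a share of cells with a UMI of up to 0.0879% and 0.122%, or in 191 and 158 pericyte-like cells. Cdh5, the cadherin that seals endothelial junctions, was at 270 CPM (244 to 297) and 331 CPM (292 to 374), with 97.9% and 95.9% of its UMIs in endothelial cells. Outside them it was counted mainly in fibroblast-like cells, 5 UMIs in DTRneg and 9 in DTRpos. Pecam1, which homes to cell borders and is used in transmigration, was at 344 CPM (315 to 374) and 487 CPM (439 to 539). Endothelial cells held 91.8% and 92.6% of its UMIs, and mature oligodendrocyte-like cells were positive in 0.762% and 0.816%, at medians of 7617.5 and 6298.5 UMIs. That class should lack vessel genes and was taken as the background here. Icam2, with a like level in DTRneg endothelial cells, had 0 UMIs in it, and the source of the Pecam1 UMIs was not tested.

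Esam, a junction protein of the immunoglobulin family, was also a pericyte transcript in these data. It was at 630 CPM (591 to 671) in DTRneg and 759 CPM (699 to 823) in DTRpos endothelial cells, and at 375 CPM (318 to 439) and 403 CPM (329 to 488) in pericyte-like cells. After thinning each cell to 2000 UMIs, 57.0% of 93 and 58.1% of 31 pericyte-like cells were positive, against 70.3% of 276 and 77.9% of 136 endothelial cells. In contrast, the pericyte-like cells held 2 UMIs of Pecam1 in DTRneg and 0 in DTRpos and none of Icam2 or Cdh5 in either, although these are abundant in the endothelial cells that pericytes wrap. In mature oligodendrocyte-like cells Esam was counted in 0.234% and 0.122%.

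Vcam1, the ligand of integrin alpha4 beta1, had most of its UMIs outside vessels. Endothelial cells held 20.8% of them in DTRneg and 12.9% in DTRpos, while astrocyte-like cells held 53.8% and 66.7%. Its level in astrocyte-like cells, 257 CPM (240 to 274) and 264 CPM (247 to 281), overlapped that in fibroblast-like cells, 226 CPM (173 to 289) and 246 CPM (174 to 337). In endothelial cells as a whole it was 230 CPM (207 to 256) and 232 CPM (199 to 268). Inside the endothelial cluster it was 316 CPM (283 to 352) and 252 CPM (216 to 293). There the DTRneg level lay above that of astrocyte-like cells beyond the intervals, and the DTRpos level did not. Neural stem cell-like cells followed at 135 CPM (105 to 170) and 116 CPM (79.0 to 165), and choroid plexus-like cells at 101 CPM (81.9 to 123) and 134 CPM (89.0 to 194), which do not differ beyond their intervals. OPC-like cells, the oligodendrocyte precursors, were lower at 37.2 CPM (31.2 to 43.9) and 39.4 CPM (33.5 to 46.0), and mature oligodendrocyte-like cells were at 0.571 and 0.374 CPM. Pericyte-like cells held 0 Vcam1 UMIs in DTRneg, where 3 counts would be 7.35 CPM, and 1 in DTRpos.

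Over all endothelial barcodes the level was close to that of astrocyte-like cells, but it was made up differently in these 2 main sources of Vcam1. In astrocyte-like cells 40.2% of 722 DTRneg and 38.5% of 855 DTRpos cells were positive at 2000 UMIs, and the 5 richest cells held 3.83% and 3.77% of the UMIs. In endothelial cells 14.9% and 17.6% were positive at that depth, and the 5 richest held 31.7% and 38.3%, with up to 29 UMIs in 1 cell. Without thinning, 496 and 540 astrocyte-like and 82 and 41 endothelial cells were positive, so 5 cells are a larger part of the endothelial ones.

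Icam1, the integrin ligand that endothelium raises on inflammation, was at 132 CPM (114 to 151) in DTRneg and 209 CPM (178 to 244) in DTRpos endothelial cells, which held 86.0% and 76.4% of its UMIs. Fibroblast-like cells came next, with 14 UMIs in 7 of 67 DTRneg cells and 24 UMIs in 5 of 55 DTRpos cells, or 51.0 CPM (27.9 to 85.5) and 155 CPM (99.4 to 231). Of those 24 UMIs, 9 came from 1 cell. Microglia or macrophage-like cells, of which the sort left 45 and 34, held 3 and 8 UMIs. In astrocyte-like cells 1 Icam1 UMI was counted in each library, among 936 and 1096 cells, so the genes for the 2 inducible integrin ligands parted there.

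**Figure D1:**
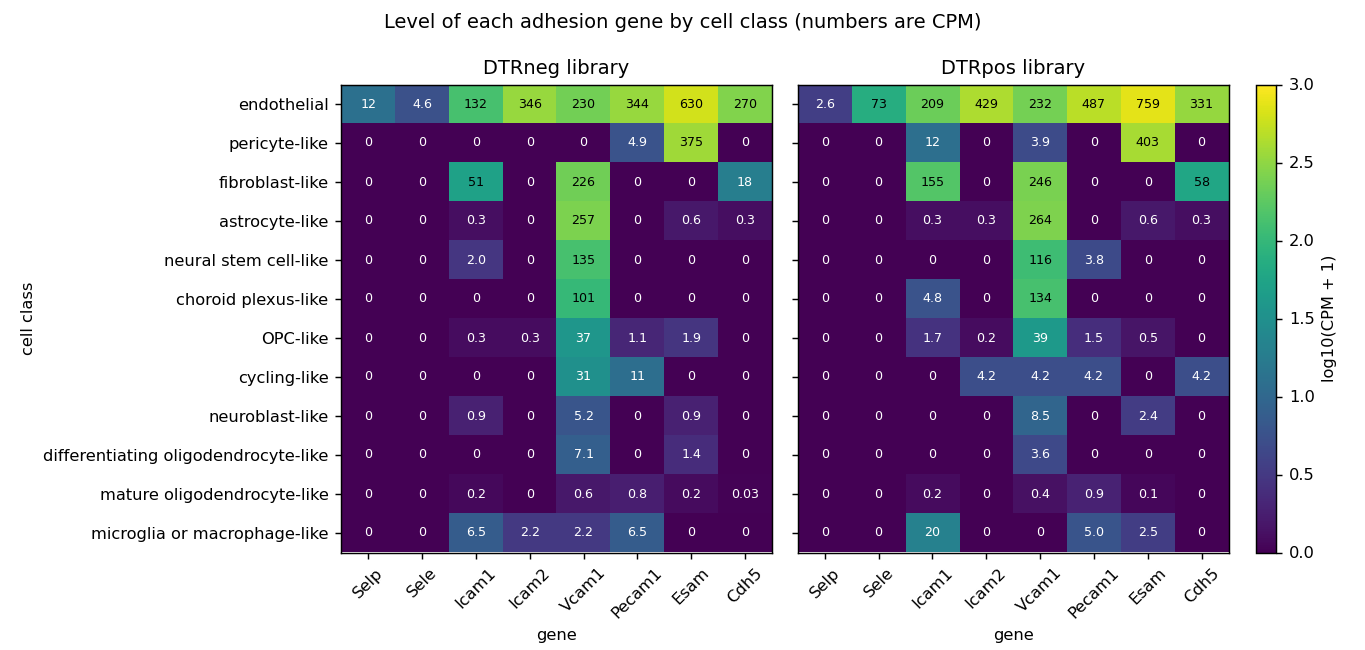
Colour and numbers give the summed level of each gene (columns) in each cell class (rows) of the DTRneg and DTRpos libraries, in CPM, with colour as log10(CPM + 1). Icam2, Cdh5 and Pecam1 are bright in the endothelial row, Esam also in the pericyte-like row at 375 and 403 CPM, and Vcam1 in many rows, led by astrocyte-like, fibroblast-like and endothelial cells.

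Across 24 class-by-library values of log2(CPM + 1), the genes with the most similar pattern to Icam2 were Tek, Tmem252 and Tie1 (Pearson r from 0.987 to 0.990), of which Tek and Tie1 encode receptor kinases of the angiopoietin system. For Esam they were Emcn, Slfn5 and Spaar (0.965 to 0.985), and for Cdh5 Abcb1a, the efflux pump of the blood-brain barrier, Notum and C130074G19Rik (0.947 to 0.969). Pecam1 was most like Icam2, Gimap1 and Prkch (0.903 to 0.906), and Icam1 most like Sp100, Fli1 and Casp12 (0.902 to 0.939). Vcam1 stood apart, with Gsta4, Slc38a3 and Nebl (0.831 to 0.899). Sele, with 64 UMIs in all, was most like Cytl1, Gm37393 and Ly75 (0.948 to 0.999). The classes share libraries and most genes are near 0 in most of them, so these values are descriptions.

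Endothelial cells inside the cluster were then placed along the vessel tree by markers that include none of the 8 genes: arterial (Bmx, Gkn3 and others), capillary (Mfsd2a, Slc16a1 and others) or venous (Slc38a5, Vwf, Nr2f2, Ackr1 and others), with at least 2 markers of 1 segment and more than of any other. Capillary cells were the majority, 363 of 502 in DTRneg (72.3%) and 280 of 370 in DTRpos (75.7%). Venous cells were 66 in DTRneg (13.1%, 10.3 to 16.4) and 23 in DTRpos (6.22%, 3.98 to 9.18), arterial cells 21 and 19, and 52 and 48 cells had no segment. Of the venous cells, 20 and 8 led by a single marker.

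Icam1 and Vcam1 were concentrated in the venous cells. Vcam1 was positive in 68.2% (55.6 to 79.1) of venous cells in DTRneg and 56.5% (34.5 to 76.8) in DTRpos, against 5.51% (3.40 to 8.38) and 4.29% (2.23 to 7.37) of capillary cells, and the arterial share was 19.0% (4 of 21) and 21.1% (4 of 19). Icam1 was positive in 48.5% (36.0 to 61.1) and 43.5% (23.2 to 65.5) of venous cells, against 10.7% (7.75 to 14.4) and 9.64% (6.45 to 13.7) of capillary cells, and in 1 of 21 and 0 of 19 arterial cells. Median depths were 2034 and 2105 UMIs in venous cells and 1998 and 1589.5 in capillary cells, and at 1000 UMIs Vcam1 was positive in 54.7% and 52.4% of venous against 4.09% and 2.98% of capillary cells. In summed level, Vcam1 reached 1503 and 1308 CPM in venous cells against 109 and 91.8 CPM in capillary cells, and Icam1 745 and 942 CPM against 90.8 and 122 CPM. Over all endothelial barcodes the Vcam1 shares were 67.2% and 58.3% of venous against 7.22% and 5.23% of capillary cells, and those of Icam1 47.8% and 41.7% against 10.8% and 9.76%. All selectin UMIs were in venous cells.

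The constitutive genes showed no such concentration in venous cells. Esam was positive in 74.9% and 75.4% of capillary cells and in 78.8% and 78.3% of venous cells, and Cdh5 in 51.2% and 47.5% against 51.5% and 60.9%. Icam2 was positive in 53.4% and 50.4% of capillary, 68.2% and 56.5% of venous and 76.2% and 68.4% of arterial cells, rising in that order in both libraries. Pecam1 was positive in 62.0% and 57.9% of capillary cells and 54.5% and 69.6% of venous cells, with the higher segment changing between libraries. Without thinning, the capillary and venous intervals of these 4 genes overlapped in both libraries, which does not show that the shares are alike. At 1000 UMIs, 64 DTRneg and 21 DTRpos venous cells were left. There Cdh5 was less often positive in venous than capillary cells, 21.88% against 33.96% in DTRneg and 23.81% against 33.19% in DTRpos. Esam was at 51.56% against 54.72% and 52.38% against 58.3%. Icam2 (43.75% against 32.08%, then 28.57% against 37.02%) and Pecam1 (25% against 39.94%, then 52.38% against 42.55%) changed direction between libraries.

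**Figure D2:**
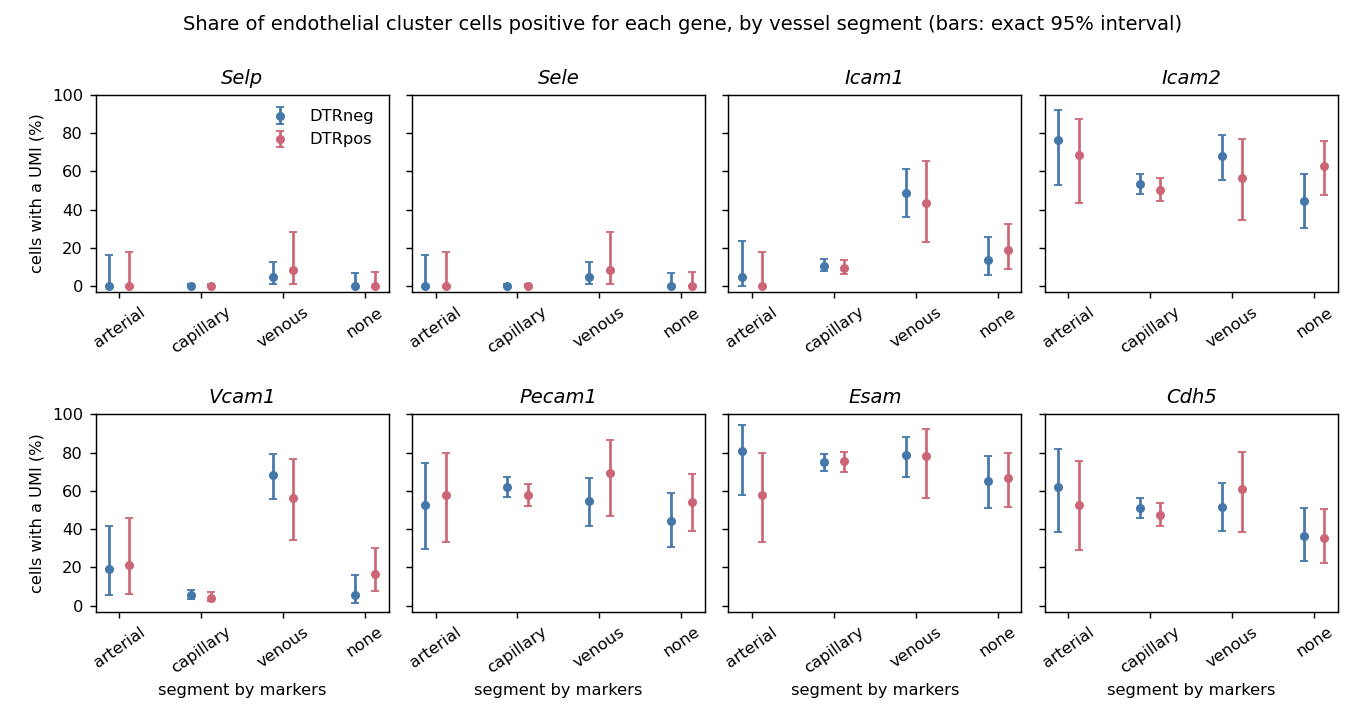
Points give the share of endothelial cluster cells with at least 1 UMI of each gene, by vessel segment and library, and bars are exact 95% binomial intervals over cells. Icam1 and Vcam1 peak in venous cells at 43.5% to 68.2% in both libraries, Selp and Sele are seen in venous cells alone, and the other 4 genes are spread over all segments.

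The same cells tended to hold both inducible ligands. Inside the cluster, 49.4% of the 79 Icam1-positive DTRneg cells were also Vcam1-positive, against 7.80% of the 423 Icam1-negative ones, and in DTRpos the shares were 45.7% of 46 and 4.94% of 324. After thinning every cell to 1000 UMIs they were 44.9% against 7.67% and 42.4% against 3.64%. Cdh5, in contrast, was found in 20.4% of Icam1-positive and 32.5% of Icam1-negative cells of DTRneg at that depth, and in 33.3% and 30.5% in DTRpos. Pecam1 was more often positive in Icam1-positive cells of both libraries at that depth, 42.9% against 35.5% and 57.6% against 41.1%, as was Esam, 61.2% against 53.7% and 69.7% against 56.7%. The pairing of Icam1 and Vcam1 was also seen within a segment, without thinning. Among capillary cells Vcam1 was positive in 28.2% of 39 Icam1-positive and 2.78% of 324 Icam1-negative cells of DTRneg. In DTRpos the shares were 25.9% of 27 and 1.98% of 253. Icam1-positive cells of the cluster were deeper, with medians of 2459 against 1819 UMIs in DTRneg and 2326.5 against 1553 in DTRpos. Of the capillary cells, 50 and 39 led by a single marker. The part of depth and of segment placement in this pairing was not tested. Cells of 1 library are not replicates, and these shares carry no test.

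The libraries were then compared within endothelial cells. A gene was called different when its CPM differed at least 1.5-fold and the counting interval of the ratio excluded 1, among genes with at least 50 UMIs in both libraries together. Over all endothelial barcodes, Icam1 and Sele were called higher in DTRpos and no gene of the 7 that could be called was lower (Selp had too few UMIs), where 5.44% of 6102 genes were called higher and 8.16% lower. Inside the cluster Sele alone was called, which in both sets passed the minimum of 50 UMIs through its DTRpos count, where 3.28% of 4851 genes were called higher and 2.93% lower. The median log2 ratio of the 7 genes was 0.31 over all barcodes and 0.01 inside the cluster, beside 0.04 and 0.03 for all genes tested.

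The Sele call rested on 2 cells. Its 57 DTRpos UMIs, 46 and 11 in the cells named above, faced 7 in DTRneg, a log2 ratio of 4.01 (2.87 to 5.38) over all barcodes and 3.68 (2.54 to 5.06) inside the cluster. The share of positive cells was 0.561% in DTRneg and 0.526% in DTRpos. The Selp sum went the other way, 18 UMIs against 2, with 15 of the 18 in 1 cell. The 46-UMI cell also held 7 Icam1 and 11 Vcam1 UMIs and all 7 venous markers.

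Icam1 was higher in DTRpos by a log2 ratio of 0.66 (0.36 to 0.97) over all endothelial barcodes, from 202 and 162 UMIs. Inside the cluster the ratio was 0.35 (0.04 to 0.66), from 187 to 239 CPM, below the size needed for a call. The share of positive cells was 15.3% (12.4 to 18.7) in DTRneg and 12.4% (9.23 to 16.1) in DTRpos, and 17.0% and 19.1% at 2000 UMIs. The 5 richest cells held 28.7% of the Icam1 UMIs in DTRneg and 41.4% in DTRpos. Without them the ratio was 0.39 over all barcodes and 0.08 inside the cluster, so most of the ratio of 0.35 inside the cluster rested on those cells.

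Vcam1 had a log2 ratio of 0.01 (-0.26 to 0.27) over all endothelial barcodes and -0.33 (-0.60 to -0.06) inside the cluster, from 316 to 252 CPM. With each cell thinned to 2000 UMIs the ratio inside the cluster was 0.28. The share of venous cells, where this gene is highest, was also lower in DTRpos. Within venous cells the Vcam1 ratio was -0.20 (-0.61 to 0.19) and within capillary cells -0.25 (-0.80 to 0.29), while Icam1 was at 0.34 (-0.17 to 0.83) and 0.42 (-0.10 to 0.94). None of these 4 intervals excludes 0. In astrocyte-like cells the Vcam1 ratio was 0.04 (-0.09 to 0.17), the most precise value for any of the 8 genes in any class, and it leaves room for a change of no more than 0.17 in counting terms.

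In cells without a segment the summed levels of these genes differed more between the libraries. There Icam1 had 9 UMIs in 7 of 52 DTRneg cells and 51 in 9 of 48 DTRpos cells, and Vcam1 had 3 UMIs in 3 cells and 48 in 8. The share intervals overlapped, 5.59% to 25.8% and 8.95% to 32.6% for Icam1 and 1.21% to 15.95% and 7.48% to 30.2% for Vcam1. Few cells held most of the DTRpos UMIs. One DTRpos cell of this kind held 24 Vcam1 and 14 Icam1 UMIs with 1 venous and 1 capillary marker detected. Another held 15 Vcam1 UMIs with 2 markers of each, and another 14 Icam1 UMIs with 1 of each. In DTRneg venous cells held 71.0% of the Vcam1 and 59.6% of the Icam1 UMIs of the cluster, and in DTRpos 40.0% and 30.4%, while cells without a segment held 28.2% and 31.7% there against 0.896% and 4.55% in DTRneg. Whether fewer venous cells were sampled or venous markers were less often detected in DTRpos cannot be told apart here.

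The constitutive genes were close between the libraries once barcodes outside the cluster were set aside. Over all barcodes Icam2 had a log2 ratio of 0.31 (0.11 to 0.51), Esam of 0.27 (0.12 to 0.42) and Cdh5 of 0.30 (0.07 to 0.52). Inside the cluster they were at -0.01 (-0.21 to 0.20), -0.04 (-0.19 to 0.11) and 0.01 (-0.22 to 0.24). Icam2 thus stood at 492 and 489 CPM, Esam at 891 and 865 CPM and Cdh5 at 375 and 378 CPM. Pecam1 kept part of its difference, 0.50 (0.31 to 0.70) over all barcodes and 0.22 (0.03 to 0.42) inside the cluster, where it went from 475 to 555 CPM. Its share of positive cells was 57.9% and 57.6%, but at 2000 UMIs, which 276 DTRneg and 136 DTRpos cells reached, 49.3% (43.2 to 55.3) and 64.0% (55.3 to 72.0). The difference of 14.7 points (4.49 to 24.3) is the one among the 8 genes whose interval excluded 0 at that depth, and inside the cluster the shares were 54.5% and 68.3%. At 1000 UMIs, which 472 and 318 endothelial cells reached, the difference over all barcodes was 7.93 points. At 2000 UMIs the difference for Icam2 was 5.18 points (-5.04 to 15.1), for Esam 7.65 points (-1.56 to 16.0) and for Cdh5 5.42 points (-4.73 to 15.5). In pericyte-like cells the Esam ratio was 0.10 (-0.27 to 0.47).

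**Figure D3:**
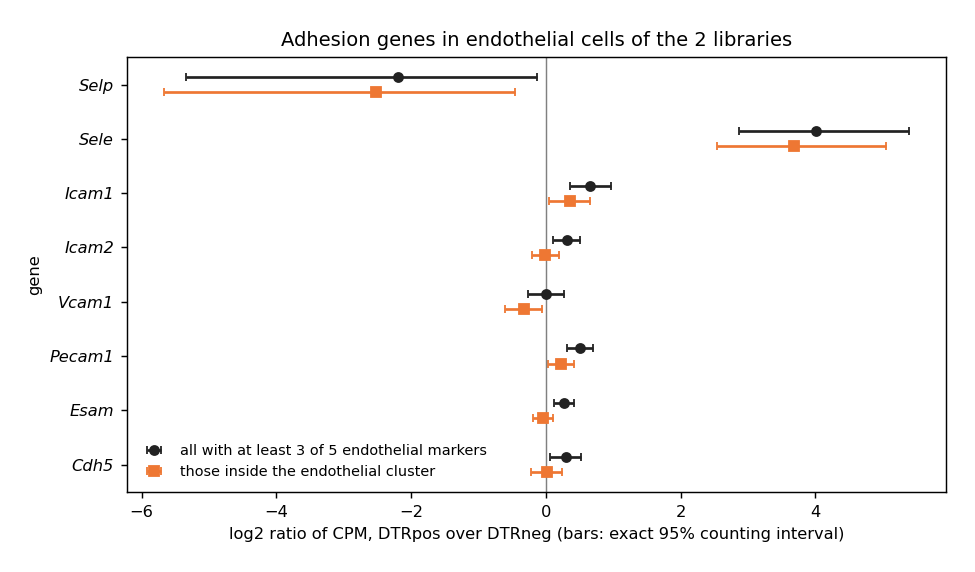
Points give the log2 ratio of CPM, DTRpos over DTRneg, for each gene in all endothelial barcodes (black circles) and in those inside the endothelial cluster (orange squares), with exact 95% counting intervals as bars. Icam2, Esam and Cdh5 sit at 0.27 to 0.31 among all barcodes and between -0.04 and 0.01 inside the cluster.

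**Figure D4:**
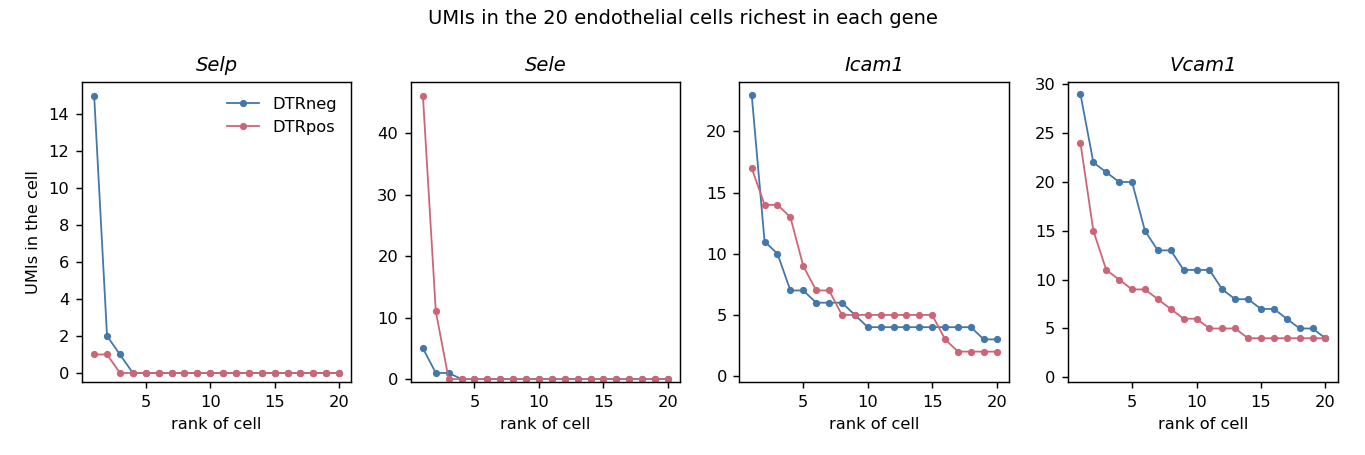
Each line ranks the 20 endothelial cells richest in Selp, Sele, Icam1 or Vcam1 by their UMIs of that gene, for DTRneg (blue) and DTRpos (red). The selectins come from 2 or 3 cells per library, and Sele reaches 46 UMIs in 1 DTRpos cell. Vcam1 and Icam1 fall off more slowly and still have UMIs in the last of the 20 cells shown.

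Genes that act with these 8 were read from 5 lists. Of 8 chemokines and carriers presented on the vessel wall, 6 could be called over all endothelial barcodes, and 4 were higher in DTRpos and none lower, both there and inside the cluster (median log2 ratio 1.37 and 1.05), where 5.44% and 3.28% of all genes tested were called higher and 8.16% and 2.93% lower. Cxcl10, a T-cell attractant induced by interferon, went from 30 to 134 UMIs over all barcodes (log2 ratio 3.14, 2.56 to 3.76), with 86 of the 134 in 1 cell, and to 108 UMIs inside the cluster (2.50, 1.91 to 3.13). Cxcl9, with the same receptor, went from 0 to 56 UMIs, which is 36.8-fold higher over all barcodes and 29.3-fold inside the cluster when DTRneg is set at 3 counts. The exact intervals of its log2 ratio began lower, at 4.86 and 4.53. Its 2 positive DTRpos cells alone brought it past the minimum of 50 UMIs. Cxcl10, with 30 UMIs in DTRneg, also passed that minimum only through its DTRpos count, in both sets. Cxcl1, a neutrophil attractant, had a ratio of 1.57 (1.04 to 2.10), and of 1.24 inside the cluster, with 35 of 78 DTRpos UMIs in 1 cell. Ackr1, the venular receptor that carries chemokines across the wall and a venous marker here, had a ratio of 1.18 (0.66 to 1.69), 0.87 inside the cluster, and 71 DTRpos UMIs in 7 cells, all venous. Of the endothelial cells of DTRneg and DTRpos, Cxcl10 was found in 11 and 8 (2.06% and 2.11%), Cxcl1 in 16 and 14 (2.99% and 3.68%) and Ackr1 in 19 and 7 (3.55% and 1.84%).

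Calls in the other lists are set beside those over all genes tested, 5.44% higher and 8.16% lower over all barcodes. Inside the cluster those shares were 3.28% and 2.93%. Of the junction and transmigration genes, 8 could be called over all barcodes, with Cldn5, the main claudin of the blood-brain barrier higher (0.60, 0.54 to 0.66, a description only, since this gene is one of the markers that defined the cells) and Jam3 lower (-1.38, -2.01 to -0.80). Inside the cluster none of 7 was called, with Cldn5 at 0.29 (0.23 to 0.35) and Jam3 at 15 and 10 UMIs, too few for a call. Of the luminal glycoproteins 5 and of the cytokine receptors that raise adhesion genes 6 could be called over all barcodes, and none was called there or inside the cluster. Of 11 regulators of transcription, Erg, an ETS factor of endothelial identity, was called higher over all barcodes (0.73, 0.28 to 1.18), and none was called inside the cluster, where the list's median was -0.05.

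Markers of other cells were also read inside the cluster. The 7 mature oligodendrocyte genes summed to the 1304 and 734 CPM given above, and 15 DTRneg and 16 DTRpos barcodes had at least 3 of them. The 7 astrocyte genes summed to 78.3 and 184 CPM and the 6 OPC genes to 11.3 and 51.9 CPM. The 5 T-cell genes had 0 UMIs in DTRneg and 1 in DTRpos endothelial cells. The 8 pericyte genes summed to 274 CPM in DTRneg and 114 in DTRpos inside the cluster, and the 5 erythrocyte genes to 23.6 and 105 CPM. Their part in the differences of the adhesion genes was not tested.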

How the data were processed

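Single-cell RNA was measured in 2 hippocampal libraries. The deposited tables hold UMI counts that are not normalized. Per the file headers the authors used Cell Ranger 6.1.0, on mm10 per the submitters' processing notes. The annotation release is not given in the sources used here.

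Cells with at least 500 genes and under 15% mitochondrial UMIs were kept, and Scrublet doublets (239 and 156) were removed. The libraries held 53.5 M and 35.8 M UMIs. Both were clustered together with Scanpy 1.11.5 (2000 variable genes, 30 components, 15 neighbours, Leiden resolution 1), with the 8 genes and the 5 pathway lists left out, and clusters were named from marker lists (thresholds for naming were set after seeing the data). Names are rebuilt and can differ from the study's own. UMIs were summed per class and library and divided by the class total. Ratios have exact conditional Poisson intervals and shares Clopper-Pearson intervals. These cover counting error only, and are too narrow where UMIs of a gene cluster in a few cells. The calls were run on simulated Poisson counts, the model that the intervals assume. Such counts cannot show how the calls behave where UMIs of a gene cluster in a few cells. Named list genes were those called, at most 6 in each direction, and for likeness the 3 genes with the highest correlation among those reaching 20 CPM. The genes and lists were chosen with earlier results of these data known.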

Additional observations from a re-analysis of the deposited data

How the results depend on the processing

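Restricting the barcodes to the endothelial cluster gave log2 ratios of 0.35 for Icam1, -0.33 for Vcam1, 0.22 for Pecam1 and 0.0101 for Cdh5, and turned Icam2 to -0.00643 and Esam to -0.0429. It lowered the genes called higher from 332 to 159 and lower from 498 to 142. With at least 4 of 5 markers Esam was at 0.12 and 324 genes were called lower, and with doublets kept Esam was at 0.42. With cells weighted equally the ratios were 0.17 for Icam1, 0.0406 for Icam2, -0.51 for Vcam1, 2.49 for Sele, 0.11 for Pecam1, 0.0487 for Esam and -0.0131 for Cdh5, the last turned in sign. Thinned to 2000 UMIs, Icam2 was at 0.10, Vcam1 at 0.39 and Cdh5 at 0.0518. With at least 1000 genes Sele was at 6.11.

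Inside the cluster, under alternatives chosen after seeing the data, thinning to 2000 UMIs gave 0.79 for Icam1, 0.55 for Pecam1 and 0.14 for Esam and turned Vcam1 from -0.33 to 0.28, where only 244 DTRneg and 126 DTRpos cells were left. Cells weighted equally gave 2.44 for Sele there. Over all endothelial barcodes, in contrast, cells not thinned gave a difference in positive share of -4.54 points for Vcam1. For Pecam1 that difference turned to -0.31 points. Classes set by markers with no cluster gave 351 CPM for Vcam1 in DTRneg fibroblast-like cells. Beyond the choice of cells in each, the cause was not tested. With 1 segment marker in place of 2, the 48 shares over all barcodes and the 48 inside the cluster (the latter chosen after seeing the data) stayed within their intervals, the Icam1 share of arterial DTRpos cells going from 0 to 5%. Values without the 5 richest barcodes could not be given for Selp and Sele, nor the thinned ratio of Sele, as a library was left at 0.

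No paired analysis was possible because each group is 1 library of 2 pooled mice. The selectins rest on 2 or 3 cells per library, and the venous DTRpos values inside the cluster on 23 cells.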
